A study of Mus musculus with 21 samples.

Results

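Cholesterol and fatty acid synthesis was followed through a list of 31 named genes in RNA of sorted mouse intestinal Lgr5 cells. Of these, 30 were found by symbol among the 37310 genes of the deposited tables, and all 30 passed the filter on low counts. Hmgcs1 was not analysed here. The 30 genes comprise 6 of the mevalonate stage, 9 of the steps from squalene to cholesterol, 6 that regulate, sense or carry sterols, 5 of fatty acid synthesis and elongation, and 4 desaturases.

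The mevalonate pathway builds isoprenoid units from acetyl-CoA, joins them into farnesyl diphosphate and then squalene, and folds and trims squalene into cholesterol. SREBP-2, the product of Srebf2, switches on these genes when membrane sterol is low, and SREBP-1, the product of Srebf1, acts more on fatty acid genes. SCAP escorts both factors to the Golgi for cleavage, and the INSIG proteins hold SCAP back in the endoplasmic reticulum when sterol is plentiful. Intestinal epithelium makes sterol and also absorbs it from the diet, and dividing crypt cells need both sterol and fatty acids for new membrane.

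All mice were of the Lgr5EGFPcre-ERT2 strain, in which EGFP and an inducible Cre are made from the Lgr5 locus, were 3 months old, and had eaten a purified diet since weaning. The 7 groups held 3 libraries each. AIN mice ate the control diet AIN76A, and NWD1 and NWD2 mice ate diets whose makeup the sources used here do not give. NWD1Ca mice ate NWD1 with calcium at a labelled 7.0 mg/g, NWD1VitD mice NWD1 with vitamin D at a labelled 2.3 IU/g, and AINlowVitD mice AIN with vitamin D at a labelled 0.11 IU/g. The labels state these amounts per body weight. AIN_VdrKO mice ate AIN76A and carry the label of a vitamin D receptor knockout. All NWD1Ca mice were female, all AIN_VdrKO mice were male, and the other groups mixed the sexes. Cells were the brightest few percent of EGFP-positive crypt cells, collected in bulk, so fewer cells of a type and less RNA per cell cannot be told apart.

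Libraries held 19889795 to 115435120 counts on genes. AIN, NWD1 and NWD2 are called the first set here and NWD1Ca, NWD1VitD and AINlowVitD the second set, because they lay at opposite ends of the first principal component, at -104.3 to -38.6 and 71.2 to 79.2. The AIN_VdrKO libraries lay between, at -21.9 to 43.8. Relative amounts of ERCC spike-ins, synthetic RNAs added to the samples, differed between the sets as well. In edgeR tests 45, 54 and 52 of 78 spike-ins were called in AINlowVitD against AIN, NWD1Ca against NWD1 and NWD1VitD against NWD1, 10 in AIN_VdrKO against AIN, 38 in AIN_VdrKO against AINlowVitD, and 0 in each of the 6 comparisons within a set, with AIN represented by 2 libraries. Genes of mitochondrial rRNA held 2.95% to 5.07% of a library's gene counts in the second set, 1.38% to 2.80% in AIN_VdrKO and at most 0.965% elsewhere. The part of this in the members' differences was not tested. Diet and set cannot be told apart in the 3 comparisons that cross the sets. In the comparisons of AIN_VdrKO, genotype and these differences between libraries cannot be told apart either. Lgr5 was detected in every library, at 9.49 to 87.2 CPM (counts scaled to a common library size). Summed CPM of 10 enterocyte markers was 12292 to 18559 in AIN, 1925 to 3818 in NWD1, 2433 to 17682 in NWD2, 18798 to 35522 in NWD1Ca, 26583 to 50113 in NWD1VitD, 18404 to 62111 in AINlowVitD and 7241 to 13256 in AIN_VdrKO. Summed CPM of 10 Lgr5 stem cell markers was 2328 to 4300 in AIN, 6704 to 9802 in NWD1, 3103 to 10912 in NWD2, 1447 to 2127 in NWD1Ca, 1173 to 3364 in NWD1VitD, 1048 to 2857 in AINlowVitD and 3986 to 6900 in AIN_VdrKO, so AIN and AINlowVitD overlapped. Goblet cell markers, 6 genes, summed to 42192 to 94295 CPM in second-set libraries and 9136 to 31214 in first-set libraries, with no overlap, and to 7914 to 17464 in AIN_VdrKO. Leukocyte markers summed to 15.3 to 106 CPM in the libraries of all groups but AIN_VdrKO, where they reached 899, and stroma markers to 3.17 to 31.1 CPM, with Col1a1, Col3a1, Dcn or Pdgfra at 0 in some libraries. Vdr gave 297, 482 and 247 CPM in AIN_VdrKO and 338, 373 and 746 CPM in AIN; the sources used here do not give the deleted part of the gene, so these gene-level counts do not check the genotype.

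The promoters of 5 members on which the results turn are shown first: Fads2, which had the largest falls, Acss2, Srebf2 and Nsdhl, which also fell in 3 or more comparisons, and Insig1, which was called higher in 1 comparison with a sign that turned on the TPM scale. Each is the 250 bases before the RefSeq transcription start in build GRCm38.p6, printed 5′ to 3′ on the gene's strand. Capitals mark CCAAT boxes, which read ATTGG on the opposite strand, and the E-box CACGTG. The windows are chr19:10101504-10101753 on the minus strand for Fads2, chr2:155517793-155518042 for Acss2, chr15:82147019-82147268 for Srebf2, chrX:72918271-72918520 for Nsdhl and chr5:28071162-28071411 for Insig1, the last 4 on the plus strand.
Fads2: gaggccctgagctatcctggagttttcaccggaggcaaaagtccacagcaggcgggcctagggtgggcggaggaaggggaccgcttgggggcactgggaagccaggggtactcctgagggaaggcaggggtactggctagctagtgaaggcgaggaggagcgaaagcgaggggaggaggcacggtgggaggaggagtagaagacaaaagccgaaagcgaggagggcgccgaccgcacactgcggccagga
Acss2: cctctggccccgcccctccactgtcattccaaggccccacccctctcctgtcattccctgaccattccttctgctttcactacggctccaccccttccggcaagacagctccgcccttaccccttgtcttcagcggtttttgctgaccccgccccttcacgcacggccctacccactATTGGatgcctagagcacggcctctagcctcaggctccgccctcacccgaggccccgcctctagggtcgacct
Srebf2: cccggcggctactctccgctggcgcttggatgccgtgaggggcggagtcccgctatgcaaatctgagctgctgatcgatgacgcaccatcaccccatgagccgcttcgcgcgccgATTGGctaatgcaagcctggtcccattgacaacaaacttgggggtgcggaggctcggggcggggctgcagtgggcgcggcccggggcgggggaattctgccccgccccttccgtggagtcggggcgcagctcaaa
Nsdhl: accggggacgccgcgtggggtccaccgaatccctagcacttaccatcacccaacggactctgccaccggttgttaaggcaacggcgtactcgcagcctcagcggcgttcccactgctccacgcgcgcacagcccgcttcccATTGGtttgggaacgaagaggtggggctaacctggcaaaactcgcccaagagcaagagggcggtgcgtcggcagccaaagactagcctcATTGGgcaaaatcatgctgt
Insig1: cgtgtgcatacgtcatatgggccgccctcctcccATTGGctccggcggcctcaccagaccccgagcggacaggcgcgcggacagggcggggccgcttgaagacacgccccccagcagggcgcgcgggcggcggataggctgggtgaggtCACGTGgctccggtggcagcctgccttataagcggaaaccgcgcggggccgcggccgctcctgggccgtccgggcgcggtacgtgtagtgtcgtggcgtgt
Fads2 has neither motif in this window, Acss2 and Srebf2 have 1 CCAAT box each, Nsdhl has 2, and Insig1 has 1 CCAAT box and 1 CACGTG. Of the members not printed, Acat2, Idi1 and Acly also fell in 3 or more comparisons. Idi1 has 2 CCAAT boxes in its window, and Acat2 and Acly have neither motif. Of the 31 listed genes, 24 had a promoter entry, with 32 windows. CCAAT, the box bound by NF-Y, was found on either strand in 19 of these 32 windows (59.4%) and in 33.9% of all 32851 windows of the same length. CACGTG was in 4 of 32 (12.5%) and in 6.02% of all windows. The sterol regulatory element was searched on both strands in the forms TCACNCCAC and TCANCCCAC, which can overlap; each was in 1 of 32 windows (3.13%), that of Hmgcs1, and in 1.05% and 1.17% of all windows. These matches describe letters only and were not tested.

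Between genes, levels were compared per length, as TPM (counts divided by gene length and scaled to a common total). Fdps, which makes farnesyl diphosphate, had the highest median over the 21 libraries, 148 TPM, followed by Ebp at 88.0, Fads2 at 70.1 and Fdft1, squalene synthase, at 59.3. Srebf2 was at 33.6 TPM and Srebf1 at 18.9. Fasn, the fatty acid synthase, was at 8.09, Scd2 at 6.12, Lss, lanosterol synthase, at 2.87 and Acaca, acetyl-CoA carboxylase, at 1.57. Scd1, a stearoyl-CoA desaturase, was nearly absent, at a median of 0.0295 TPM and 0 to 42 counts per library. This order pools groups that differed: Fads2 led in NWD1, at a mean of 390 TPM against 290 for Fdps, and in NWD2, at 367 against 250. In NWD1VitD Fads2 was at 19.3, while Fdps led at 73.7 and Ebp was at 44.5. The ranges over libraries were wide: Fads2 spanned 12.7 to 563 TPM, while Ebp, a sterol isomerase, spanned 39.8 to 179, so neighbours in this order overlapped.

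**Figure D1:**
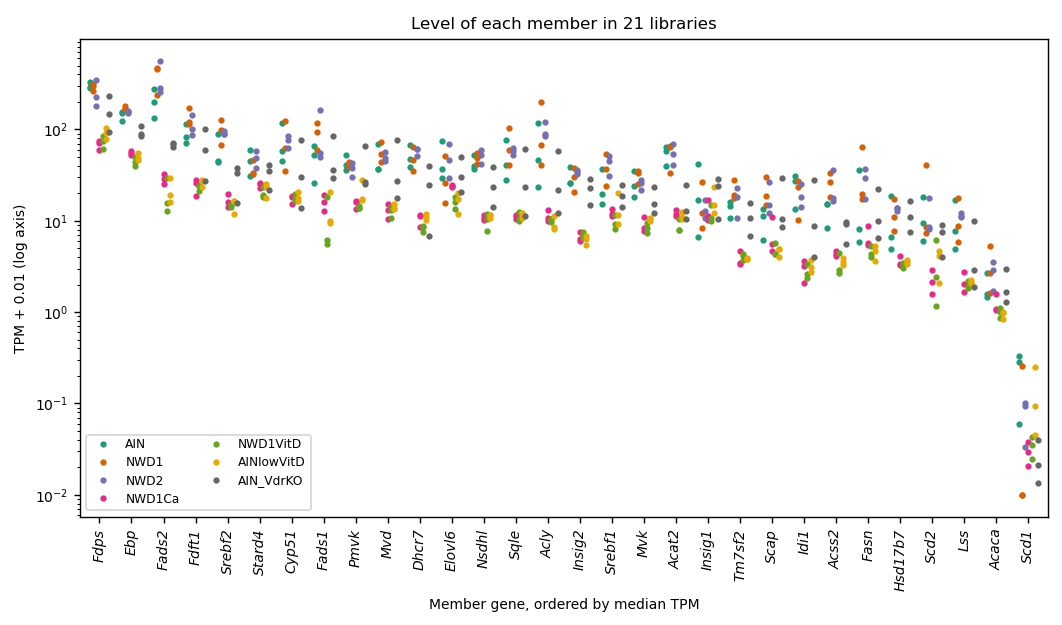
Level of each of the 30 members in the 21 libraries, in TPM plus 0.01 on a log axis, with genes ordered by their median and points coloured by group. Fdps leads at a median of 148 TPM and Scd1 is last at 0.0295 TPM.

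Within a gene, groups were compared in CPM with library sizes scaled by TMM. The highest group mean was 14.7 times the lowest for Scd1, on few counts, 6.67 times for Fads2, 4.22 times for Idi1, 3.82 times for Insig1 and 3.51 times for Acly. The ratio was smallest for Acaca, at 1.23, and Ebp, at 1.44, in CPM only. In TPM the group means of Ebp ran from 44.5 in NWD1VitD to 172 in NWD1, and those of Acaca from 0.938 in AINlowVitD to 3.18 in NWD1. The lowest group mean in CPM was that of NWD1Ca for 15 of the 30 genes and that of NWD1VitD for 7. The highest was that of AIN for 12 and of NWD1 for 10. Insig1, Stard4, Pmvk and Scd1 had their highest mean in AINlowVitD in CPM, but not in TPM. In TPM the highest mean was in AIN for Insig1, Pmvk and Scd1 and in NWD2 for Stard4.

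**Figure D2:**
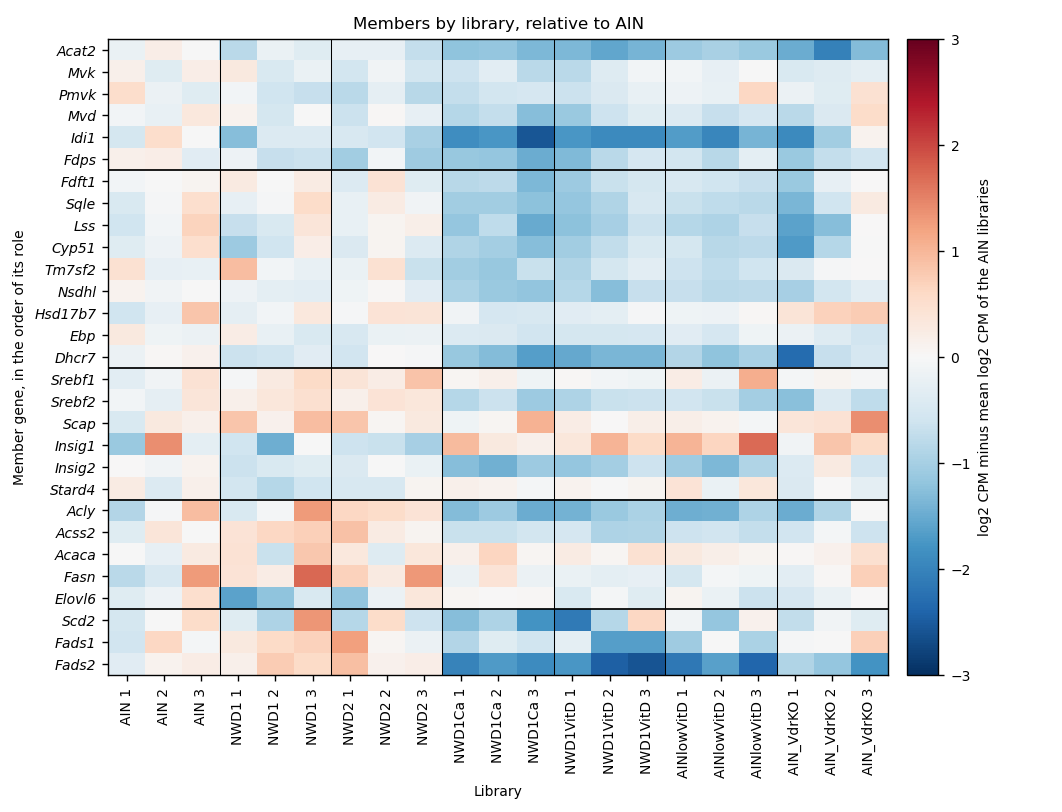
Log2 CPM of 29 members (rows, in the order of their roles) in each library (columns), after subtracting the mean log2 CPM of the 3 AIN libraries; Scd1 is left out for its low counts. Blue, below AIN, fills most rows of NWD1Ca, NWD1VitD and AINlowVitD.

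Most of the members that changed were lower in the groups of the second set than in AIN or NWD1. In NWD1VitD against NWD1, 12 of 30 members (40%) fell and 2 (6.67%) rose, where 20.6% of all genes tested fell and 19.9% rose. In NWD1Ca against NWD1, 11 fell (36.7%) and 1 rose (3.33%), against 14.9% and 15.6% of all genes. In AINlowVitD against AIN, 9 fell (30%) and 0 rose, against 16.3% and 15.1%. A call is a Benjamini-Hochberg adjusted p below 0.05 over 16050 genes in edgeR's quasi-likelihood test. The groups' libraries did not overlap for any called member, as was also so for 91.9% of all called genes in NWD1VitD against NWD1, 96.8% in NWD1Ca against NWD1, 97.1% in AINlowVitD against AIN and 93.1% in AIN_VdrKO against AIN. Called or not, 17, 20, 15 and 8 of the 30 members (56.7%, 66.7%, 50% and 26.7%) did not overlap in these 4 comparisons, beside 48.7%, 50.6%, 46.9% and 29.0% of all genes. The median log2 fold change of the members was -0.61, -0.74 and -0.59 in NWD1VitD, NWD1Ca and AINlowVitD, and that of all genes -0.03, -0.04 and -0.10. In AIN_VdrKO against AIN, 3 members fell (10%) and 0 rose, against 5.09% and 7.44% of all genes, with medians of -0.45 and -0.01. Without AIN 3 the members' median there was -0.21. NWD1Ca and NWD1VitD were set against the same NWD1 libraries, and AINlowVitD and AIN_VdrKO against the same AIN libraries, so likeness between these lists is no separate evidence.

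In the comparisons within a set no member was called. The background was 0.766% of genes in NWD1 against AIN (0.660% lower, 0.106% higher), 0.00623% in NWD2 against NWD1, and 0% in NWD2 against AIN, NWD1VitD against NWD1Ca, NWD1Ca against AINlowVitD and NWD1VitD against AINlowVitD. DESeq2 and limma on log2(TPM + 1) also called 0 members there. DESeq2 called 5.01% of genes in NWD1 against AIN, 2.15% in NWD2 against NWD1, 0.0250% in NWD2 against AIN, 0.0187% in NWD1VitD against NWD1Ca, 0.0312% in NWD1Ca against AINlowVitD and 0.0499% in NWD1VitD against AINlowVitD, and limma 1.45%, 0.168% and 0% of genes in the first 3 of these and 0% in the rest. At an unadjusted p below 0.05, edgeR passed 4 of 30 members in NWD1 against AIN, beside 15.2% of all genes, 2 in NWD2 against AIN (6.85%) and 1 in NWD2 against NWD1 (10.7%), each below the share of all genes. It passed 2 in NWD1Ca against AINlowVitD (1.3%), 0 in NWD1VitD against NWD1Ca (2.32%) and 0 in NWD1VitD against AINlowVitD (2.91%). AIN_VdrKO against AINlowVitD called 0 members in edgeR, against 3.07% of genes (2.38% lower, 0.685% higher), and 0 in DESeq2, against 7.28%. At an unadjusted p below 0.05 edgeR passed 3 of 30 members there, below the 20.2% of all genes. The 9 of 30 that limma on log2(TPM + 1) called higher there match the background of 30.1%, with the median of all genes at 0.63 and that of the members at 0.88.

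Counts of calls depended on single libraries, and so did those of all genes. Without NWD1 3, 4 of the 12 calls in NWD1Ca against NWD1 remained, without NWD1Ca 1 or NWD1Ca 2, 7, and without NWD1Ca 3, 5. The genes called over the whole table went from 4903 to 2524 without NWD1 3. Of the 14 member calls in NWD1VitD against NWD1, 8 remained without NWD1VitD 1 and 7 without NWD1VitD 2. Of the 9 in AINlowVitD against AIN, 5 remained without AIN 3 and 5 without AINlowVitD 3. AIN_VdrKO against AIN had 6 calls without AIN_VdrKO 3, all lower, beside 10.9% of all genes called there (4.97% lower). A single member was called lower without NWD1 3 in NWD1 against AIN, beside 1.66% of all genes called. A single member was called higher without AIN 3 in NWD2 against AIN, beside 5.14% of all genes. The same was so without AIN_VdrKO 1 in AIN_VdrKO against AINlowVitD, beside 11.8%.

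**Figure D3:**
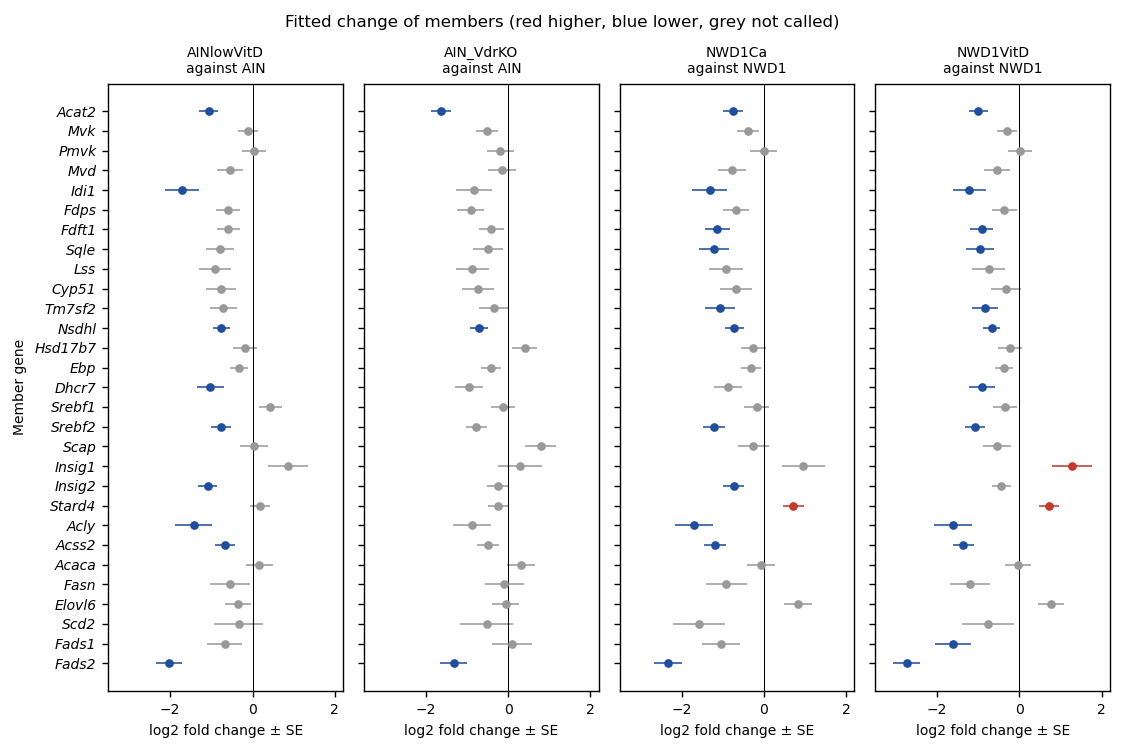
Fitted log2 fold change with its SE for 29 members (Scd1 left out) in the 4 comparisons with calls; blue marks members called lower, red higher and grey not called. Fads2 lies farthest to the left in 3 panels, at -2.03, -2.32 and -2.74, and Acat2 in AIN_VdrKO against AIN, at -1.64. The 2 red genes are Stard4 and Insig1, whose sign flips on the log2(TPM + 1) scale.

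Fads2 (ENSMUSG00000024665.7), the delta-6 desaturase that starts the making of long polyunsaturated fatty acids, showed the largest falls. Its libraries gave 113, 156 and 169 CPM in AIN, 161, 245 and 216 in NWD1 and 270.3, 157 and 166 in NWD2. They gave 36.1, 44.4 and 39.1 CPM in NWD1Ca, 43.2, 26.4 and 23.8 in NWD1VitD, 32.3, 46.4 and 27.8 in AINlowVitD and 77.2, 64.4 and 41.4 in AIN_VdrKO. No first-set library was below 113 CPM and no other library above 77.2. Fads2 was 6.69-fold lower in NWD1VitD than in NWD1 (log2 fold change -2.74 ± 0.33 SE, edgeR adjusted p = 1.64e-05), 4.98-fold lower in NWD1Ca than in NWD1 (-2.32 ± 0.34, edgeR adjusted p = 2.00e-04) and 4.09-fold lower in AINlowVitD than in AIN (-2.03 ± 0.32, edgeR adjusted p = 2.60e-04). These 3 calls held with each library left out in turn. It was 2.50-fold lower in AIN_VdrKO than in AIN (-1.32 ± 0.33, edgeR adjusted p = 0.0136), a call that was lost without AIN 3 (edgeR adjusted p = 0.0987) or AIN_VdrKO 3 (0.0512), with only the 2 groups in the fit (0.0845) and with offsets for GC content and length (0.0505).

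Of the other desaturases, only Fads1, the delta-5 desaturase that acts after Fads2, was called, and only in NWD1VitD against NWD1. Its libraries gave 92.8, 113 and 123 CPM in NWD1 and 61.3, 23.9 and 23.9 in NWD1VitD, a log2 fold change of -1.61 ± 0.44 SE (edgeR adjusted p = 0.00716; 0.0521 without NWD1VitD 2). NWD1VitD 1 lay well above the 2 other libraries of its group. In NWD1Ca Fads1 gave 41.3, 59.0 and 49.9 CPM, a difference from NWD1 of -1.04 ± 0.46 that was not called (edgeR adjusted p = 0.0932). Scd2, a stearoyl-CoA desaturase that makes monounsaturated fatty acids, gave 18.5, 26.5 and 39.4 CPM in AIN, 20.7, 14.2 and 67.1 in NWD1, 14.8, 39.1 and 17.4 in NWD2, 11.1, 14.2 and 7.72 in NWD1Ca, 6.13, 14.9 and 41.3 in NWD1VitD, 25.0, 12 and 29.5 in AINlowVitD and 16.0, 25.0 and 20.9 in AIN_VdrKO. NWD1 3 and NWD1VitD 3 stood far above their groups, and Scd2 was called in none of the 11 comparisons. Scd1 had 38, 12 and 29 counts in AIN, 0, 0 and 15 in NWD1, 10, 3 and 15 in NWD2, 1, 2 and 4 in NWD1Ca, 3, 5 and 2 in NWD1VitD, 14, 3 and 42 in AINlowVitD and 1, 2 and 1 in AIN_VdrKO. It was not called in any comparison either, and at such counts its fitted fold changes depend on the prior count.

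Of the regulators, Srebf2 (ENSMUSG00000022463.6) fell in 3 comparisons. It gave 129, 113 and 176 CPM in AIN, 151, 173 and 189.6 in NWD1 and 152, 182 and 175 in NWD2. It gave 75.9, 87.1 and 64.0 CPM in NWD1Ca, 72.0, 85.5 and 87.2 in NWD1VitD, 91.3, 86.3 and 67.5 in AINlowVitD and 57.5, 102 and 81.1 in AIN_VdrKO. Every first-set library was at 113 CPM or more and every other library at 102 or less. The log2 fold change was -1.21 ± 0.26 SE in NWD1Ca against NWD1 (edgeR adjusted p = 0.00257) and -1.07 ± 0.24 in NWD1VitD against NWD1 (edgeR adjusted p = 0.00211), and both calls held without any 1 library. In AINlowVitD against AIN it was -0.78 ± 0.24 (edgeR adjusted p = 0.0208), which was lost without AIN 1 (0.0557), AIN 3 (0.144) or AINlowVitD 3 (0.116). In AIN_VdrKO against AIN it was -0.77 ± 0.26 and was not called (edgeR adjusted p = 0.0549).

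Srebf1 was not called in any comparison. It gave 49.2, 57.5 and 82.6 CPM in AIN, 60.5, 74.1 and 91.6 in NWD1, 80.4, 71.6 and 112 in NWD2, 63.8, 68.4 and 56.7 in NWD1Ca, 63.4, 58.5 and 56.6 in NWD1VitD, 72.0, 54.7 and 131 in AINlowVitD and 58.8, 64.8 and 59.8 in AIN_VdrKO. In CPM the groups overlapped in each of the 11 comparisons, and AINlowVitD 3 was the highest library. On TMM-scaled counts the log2 fold change of Srebf1 was -0.18 ± 0.30 SE in NWD1Ca and -0.35 ± 0.28 in NWD1VitD against NWD1, and 0.43 ± 0.28 in AINlowVitD against AIN. Its mean TPM was 38.3 in NWD1, 12.2 in NWD1Ca and 9.69 in NWD1VitD, on a scale where the median of all genes was also lower. Scap, the escort of both factors, was not called either, with group means between 25.5 and 43.7 CPM.

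Insig2 and Insig1 encode the membrane anchors that hold SCAP. Insig2 gave 50.7, 47.1 and 54.5 CPM in AIN, 32.5, 36.6 and 39.6 in NWD1, 37.8, 50.5 and 44.1 in NWD2, 20.9, 18.7 and 23.6 in NWD1Ca, 22.8, 24.9 and 32.7 in NWD1VitD, 24.3, 20.04 and 27.3 in AINlowVitD and 38.0, 60.9 and 34.0 in AIN_VdrKO. It was 2.13-fold lower in AINlowVitD than in AIN (log2 fold change -1.09 ± 0.24 SE, edgeR adjusted p = 0.00255), a call that held without any 1 library. The fall of -0.73 in NWD1Ca against NWD1 (edgeR adjusted p = 0.0360) was lost without NWD1 2, NWD1 3 or any 1 NWD1Ca library, and the difference of -0.44 in NWD1VitD was not called (edgeR adjusted p = 0.142).

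Insig1 gave 10.1, 57.3 and 17.8 CPM in AIN, 14.4, 7.83 and 21.5 in NWD1, 14.2, 13.8 and 10.9 in NWD2, 42.1, 26.6 and 24.0 in NWD1Ca, 27.6, 44.4 and 32.4 in NWD1VitD, 44.1, 34.1 and 70.5 in AINlowVitD and 20.3, 38.7 and 32.5 in AIN_VdrKO. AIN 2 stood far above the other AIN libraries, and NWD1 and NWD2 were low throughout in CPM. In TPM the lowest group mean was that of NWD1VitD, at 11.9, beside 15.8 in NWD1 and 13.4 in NWD2. Insig1 was called 2.41-fold higher in NWD1VitD than in NWD1 (log2 fold change 1.27 ± 0.49 SE, edgeR adjusted p = 0.0452), but the sign turned on the log2(TPM + 1) scale, where limma gave -0.24. The call was lost without NWD1 1, NWD1 2 or any 1 NWD1VitD library, with edgeR adjusted p of 0.0595 to 0.180. Insig1 and Stard4 are described as the 2 members called higher, a choice made after their values were seen.

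Stard4, a cytosolic carrier of sterols, gave 142, 90.2 and 134 CPM in AIN, 81.9, 66.2 and 78.4 in NWD1, 86.1, 85.4 and 126 in NWD2, 133, 129 and 114 in NWD1Ca, 128, 118.3 and 126 in NWD1VitD, 158, 105 and 152 in AINlowVitD and 88.6, 120.2 and 97.9 in AIN_VdrKO. NWD1 was the lowest group in CPM but not in TPM. Stard4 was called higher than in NWD1 in NWD1Ca (log2 fold change 0.71 ± 0.26 SE, edgeR adjusted p = 0.0431) and in NWD1VitD (0.72 ± 0.24, edgeR adjusted p = 0.0215), with the sign turned to -0.57 and -0.85 on the log2(TPM + 1) scale. The first call was lost without NWD1 2, NWD1 3 or any 1 NWD1Ca library, and the second without NWD1 2, NWD1 3, NWD1VitD 1 or NWD1VitD 3.

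**Figure D4:**
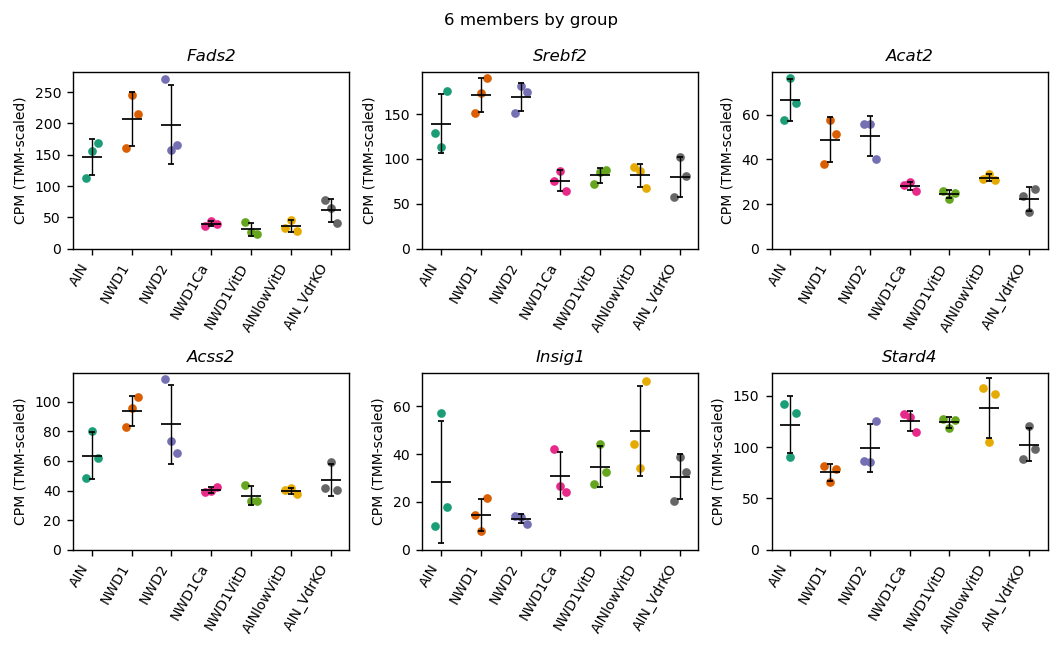
CPM of 6 members in each library by group, with the group mean (bar) and SD (whiskers, n = 3). Fads2, Srebf2 and Acat2 lie lower in the 4 groups on the right than in AIN, NWD1 and NWD2, and Stard4 is lowest in NWD1 in CPM, not in TPM; the rises of Insig1 and Stard4 over NWD1 flip on the log2(TPM + 1) scale.

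In the mevalonate stage, Acat2 (ENSMUSG00000023832.7), a thiolase that makes acetoacetyl-CoA, fell in all 4 comparisons with calls, as did Fads2 and Nsdhl. It gave 57.7, 76.3 and 65.4 CPM in AIN, 37.8, 57.4 and 51.2 in NWD1 and 55.7, 55.8 and 40.1 in NWD2. It gave 28.5, 29.8 and 25.9 CPM in NWD1Ca, 25.9, 22.4 and 25.0 in NWD1VitD, 31, 33.6 and 30.7 in AINlowVitD and 23.7, 16.2 and 26.7 in AIN_VdrKO. The lowest first-set library, at 37.8 CPM, was above the highest of the rest, at 33.6. Acat2 was 3.11-fold lower in AIN_VdrKO than in AIN (log2 fold change -1.64 ± 0.25 SE, edgeR adjusted p = 3.60e-04), 2.09-fold lower in AINlowVitD than in AIN (-1.06 ± 0.23, edgeR adjusted p = 0.00212) and 2.00-fold lower in NWD1VitD than in NWD1 (-1.0 ± 0.23, edgeR adjusted p = 0.00203). These 3 calls held without any 1 library, while the fall in NWD1Ca (-0.74 ± 0.24, edgeR adjusted p = 0.0269) was lost without NWD1 2, NWD1 3 or any 1 NWD1Ca library. Acat3, a near-identical copy that could share reads, was at 0.0990 to 0.560 CPM.

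Idi1, the isomerase of isopentenyl diphosphate, fell in 3 comparisons. It gave 22.0, 45.6 and 31.4 CPM in AIN and 9.88, 8.17 and 12.1 in AINlowVitD, a 3.30-fold fall (log2 fold change -1.72 ± 0.41 SE, edgeR adjusted p = 0.00457) that held without any 1 library. It gave 13.0, 23.8 and 23.9 CPM in NWD1, 8.71, 9.40 and 5.36 in NWD1Ca and 9.41, 8.36 and 8.40 in NWD1VitD, falls of -1.32 and -1.22 (edgeR adjusted p = 0.0278 and 0.0228) that were both lost without NWD1 2 or NWD1 3. Leaving out NWD1Ca 1 or NWD1Ca 3 also ended the first, and NWD1VitD 2 or NWD1VitD 3 the second. AIN_VdrKO was spread from 8.44 to 34.1 CPM. Mvk, Pmvk, Mvd and Fdps, the kinases, decarboxylase and synthase that carry mevalonate to farnesyl diphosphate, were called in no comparison.

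Of the 9 genes from squalene to cholesterol, 5 fell in NWD1VitD against NWD1, 4 in NWD1Ca against NWD1, 2 in AINlowVitD against AIN and 1 in AIN_VdrKO against AIN. Of all genes 20.6%, 14.9%, 16.3% and 5.09% fell in these comparisons, beside 55.6%, 44.4%, 22.2% and 11.1% of the 9. Their median log2 fold changes were -0.75, -0.87, -0.76 and -0.49. All 9 fitted values were negative in the first 3 of these comparisons and 8 of 9 in the last, beside 8200, 8206, 8632 and 8132 of 16050 genes.

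Fdft1, which joins farnesyl units into squalene, gave 149, 122 and 147 CPM in NWD1, 69.6, 71.1 and 48.4 in NWD1Ca and 58.1, 77.7 and 85.2 in NWD1VitD. It was 2.18-fold lower in NWD1Ca (log2 fold change -1.13 ± 0.31 SE, edgeR adjusted p = 0.0106), a call lost without NWD1 3 or NWD1Ca 3. In NWD1VitD it was 1.89-fold lower (edgeR adjusted p = 0.0149), lost without NWD1VitD 1. Sqle, the squalene epoxidase, gave 87.7, 117 and 169.5 CPM in AIN, 101, 117 and 175 in NWD1, 104, 142 and 112 in NWD2, 58.4, 58.0 and 51.5 in NWD1Ca, 53.3, 64.3 and 86.3 in NWD1VitD, 75.7, 71.1 and 68.5 in AINlowVitD and 46.1, 79.5 and 144 in AIN_VdrKO. Its falls against NWD1 were -1.20 in NWD1Ca (edgeR adjusted p = 0.0174) and -0.95 in NWD1VitD (edgeR adjusted p = 0.0327). NWD1 3, at 175 CPM, carried both: without it they were -0.74 and -0.61 and not called. The first was also lost without NWD1Ca 3, and the second without NWD1VitD 1 or NWD1VitD 2.

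Nsdhl, a dehydrogenase that removes a methyl group from the sterol ring, gave 64.4, 55.4 and 59.7 CPM in AIN, 53.3, 48.8 and 48.0 in NWD1 and 54.5, 61.3 and 47.1 in NWD2. It gave 30.9, 27.7 and 26.1 CPM in NWD1Ca, 32.8, 24.6 and 37.3 in NWD1VitD, 36.9, 34.3 and 34.8 in AINlowVitD and 29.8, 41.1 and 48.0 in AIN_VdrKO. The replicates lay close together and the falls were small: 1.69-fold in AINlowVitD against AIN (edgeR adjusted p = 0.00906), 1.64-fold in NWD1Ca (0.0212), 1.60-fold in NWD1VitD (0.0131) and, in AIN_VdrKO against AIN, 1.64-fold (log2 fold change -0.71 ± 0.22 SE, edgeR adjusted p = 0.0432). The AIN_VdrKO call was lost without AIN 1, AIN 3, AIN_VdrKO 1 or AIN_VdrKO 2. The others were lost without AIN 1 or AINlowVitD 3, without NWD1 3, NWD1Ca 2 or NWD1Ca 3, and without NWD1VitD 2.

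Dhcr7, which makes cholesterol in the last step of a late branch, fell in AINlowVitD against AIN (2.03-fold, edgeR adjusted p = 0.0207) and in NWD1VitD against NWD1 (1.87-fold, edgeR adjusted p = 0.0294). The first call was lost without AIN 3, AINlowVitD 2 or AINlowVitD 3, and the second without NWD1 2, NWD1 3 or any 1 NWD1VitD library. Tm7sf2, a sterol reductase, fell in NWD1Ca (2.09-fold, edgeR adjusted p = 0.0312) and NWD1VitD (1.78-fold, edgeR adjusted p = 0.0449) against NWD1. Its NWD1 libraries gave 43.8, 21.9 and 19.99 CPM, and without NWD1 1 the values were -0.73 and -0.43 and not called; NWD1Ca 1 or 2, and any 1 NWD1VitD library, also ended them. Lss, Cyp51, Hsd17b7 and Ebp, which close and trim the sterol rings, were called in no comparison, with Lss at -0.91 (edgeR adjusted p = 0.0965) and Ebp at -0.30 (0.360) in NWD1Ca against NWD1.

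Of the 5 genes of fatty acid synthesis and elongation, Acss2 and Acly, the 2 enzymes that supply acetyl-CoA, fell, and the other 3 were not called. Acss2, which makes it from acetate, gave 48.4, 80.4 and 62.1 CPM in AIN, 82.8, 96.0 and 103 in NWD1 and 115, 73.5 and 65.6 in NWD2. It gave 39.1, 39.4 and 42.4 CPM in NWD1Ca, 43.7, 32.7 and 33.3 in NWD1VitD, 40.5, 41.6 and 37.8 in AINlowVitD and 41.6, 59.6 and 40.3 in AIN_VdrKO. It fell 2.58-fold in NWD1VitD (log2 fold change -1.37 ± 0.25 SE, edgeR adjusted p = 4.30e-04) and 2.26-fold in NWD1Ca (-1.18 ± 0.27, edgeR adjusted p = 0.00349) against NWD1, and both calls held without any 1 library. The fall in AINlowVitD against AIN (-0.67, edgeR adjusted p = 0.0445) was lost without any 1 library of either group, and without AIN 2 it was -0.44.

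Acly, ATP citrate lyase, makes acetyl-CoA from citrate. It gave 70.8, 129 and 247 CPM in AIN, 96.2, 126 and 317 in NWD1, 201, 193 and 175 in NWD2, 53.3, 61.9 and 46.9 in NWD1Ca, 49.4, 61 and 68.0 in NWD1VitD, 47.6, 48.0 and 69.0 in AINlowVitD and 46.6, 70.4 and 131 in AIN_VdrKO. AIN 3 and NWD1 3 stood far above their groups. The falls of -1.70 in NWD1Ca and -1.61 in NWD1VitD against NWD1 (edgeR adjusted p = 0.0107 and 0.00914) became -0.55 and -0.72 without NWD1 3 and were not called. The fall of -1.43 in AINlowVitD against AIN (edgeR adjusted p = 0.0221) became -0.76 without AIN 3, and was also lost without AINlowVitD 1 or AINlowVitD 2.

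Fasn gave 32.7, 41.5 and 140.4 CPM in AIN, 76.0, 67.5 and 189.9 in NWD1, 93.1, 69.7 and 142 in NWD2, 50.7, 77.1 and 50.7 in NWD1Ca, 49.8, 47.0 and 48.3 in NWD1VitD, 40.1, 55.3 and 52.7 in AINlowVitD and 46.5, 59.4 and 94.5 in AIN_VdrKO. AIN 3 and NWD1 3 were again the highest of their groups, and Fasn was not called (NWD1VitD against NWD1 -1.20 ± 0.48 SE, edgeR adjusted p = 0.0544). Acaca stayed between 5.83 and 16.2 CPM in all libraries. Elovl6, an elongase of saturated fatty acids, gave 98.9, 114 and 179 CPM in AIN, 41.6, 54.5 and 92.6 in NWD1, 56.1, 112 and 160.1 in NWD2, 133, 128 and 130.0 in NWD1Ca and 92.7, 121 and 98.4 in NWD1VitD. NWD1 was the lowest group in CPM, below every AIN library, but not in TPM.

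Within the first set, Elovl6 and Stard4 had the smallest p-values in NWD1 against AIN. Their log2 fold changes were -1.03 ± 0.32 and -0.68 ± 0.24 SE (edgeR adjusted p = 0.112 and 0.166), and neither passed. Elovl6 passed where genes of low count were kept (0.0359), and without AIN 3 its difference was -0.36. The same pair led NWD2 against NWD1, at 0.80 ± 0.32 and 0.39 ± 0.24 (edgeR adjusted p = 0.355 and 0.573), in a comparison that shares the NWD1 libraries. In NWD2 against AIN, Pmvk (-0.76 ± 0.31) and Fdps (-0.74 ± 0.31) led, with an edgeR adjusted p of 0.718 for each. Pmvk gave 45.6, 28.1 and 24.8 CPM in AIN and 18.1, 26.4 and 17.8 in NWD2, and Fdps 202, 211 and 143 and 89.1, 172 and 87.0, so the groups overlapped in both. Without AIN 1 the difference of Pmvk was -0.38. Cell markers also differed within the first set. In NWD1 against AIN all 10 enterocyte markers had negative values (median -2.22), 9 at an unadjusted edgeR p below 0.05 and 1, Sis, called lower, and all 10 stem cell markers had positive values (median 1.21), 7 at an unadjusted p below 0.05 and 0 called. In NWD2 against NWD1 all 10 enterocyte markers were positive (median 2.17) with an unadjusted p below 0.05, and 0 were called. Of all genes 15.2% had an unadjusted edgeR p below 0.05 in NWD1 against AIN and 10.7% in NWD2 against NWD1. Those called were 0.766% and 0.00623%. The part of cell makeup in these differences was not tested.

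Within the second set no member was called between NWD1Ca, NWD1VitD and AINlowVitD. In NWD1VitD against NWD1Ca the smallest p-values were those of Fads2 (log2 fold change -0.43 ± 0.34 SE) and Scd2 (0.82 ± 0.68), both with an edgeR adjusted p of 1. Scd2 turned to -0.0057 without NWD1VitD 3. Against AINlowVitD, Fdps was at -0.65 ± 0.30 in NWD1Ca and Pmvk at -0.61 ± 0.30 in NWD1VitD, again with an edgeR adjusted p of 1, and Scd1 had the other smallest p in each, at -3.22 ± 1.34 and -2.40 ± 1.21 on a handful of counts. Without AINlowVitD 3 Pmvk was at -0.27, and Scd1 at -1.85 and -0.53. Pmvk gave 28.7, 27.2 and 48.5 CPM in AINlowVitD and 20.3, 23.3 and 27.1 in NWD1VitD. The median difference of the 30 members was 0.06 in NWD1VitD against NWD1Ca (-0.02 without NWD1VitD 3), -0.24 in NWD1Ca against AINlowVitD and -0.16 in NWD1VitD against AINlowVitD. A missed threshold does not show that the groups were alike.

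In AIN_VdrKO against AINlowVitD, Insig2 was higher by 0.84 ± 0.26 SE with groups that did not overlap, but was not called (edgeR adjusted p = 0.0792). It passed without the term for sex (0.0242), without AIN_VdrKO 1 (0.0324) and in limma on log2(TPM + 1) (0.00665), while without AIN_VdrKO 2 it was 0.55 with an edgeR adjusted p of 0.259. Scd1 was at -4.17 ± 1.42 (edgeR adjusted p = 0.113), on 1 to 2 counts per AIN_VdrKO library, and passed where genes of low count were kept (0.00757); without AINlowVitD 3 it was -1.95.

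The 2 scales disagreed on size and, for the rises, on sign. On log2(TPM + 1) in limma the median of all genes was -0.78 in NWD1Ca against NWD1, -0.95 in NWD1VitD against NWD1 and -0.65 in AINlowVitD against AIN, and that of the members -1.94, -1.98 and -1.61. With that scaling 26, 27 and 23 of 30 members were called lower and 0 higher, beside 51.5%, 60.3% and 45.9% of all genes called lower. Fads2 was the lowest on both scales, at -3.58 in NWD1Ca and -4.29 in NWD1VitD on the TPM scale. Stard4 and Insig1 lay above the median of all genes on that scale although below 0. Counts in the second set were taken up more by a few genes, the top 10 holding 14.1% to 20.5% of gene counts against 5.33% to 8.37% in the first set; the part of this in the difference between scales was not tested.

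**Figure D5:**
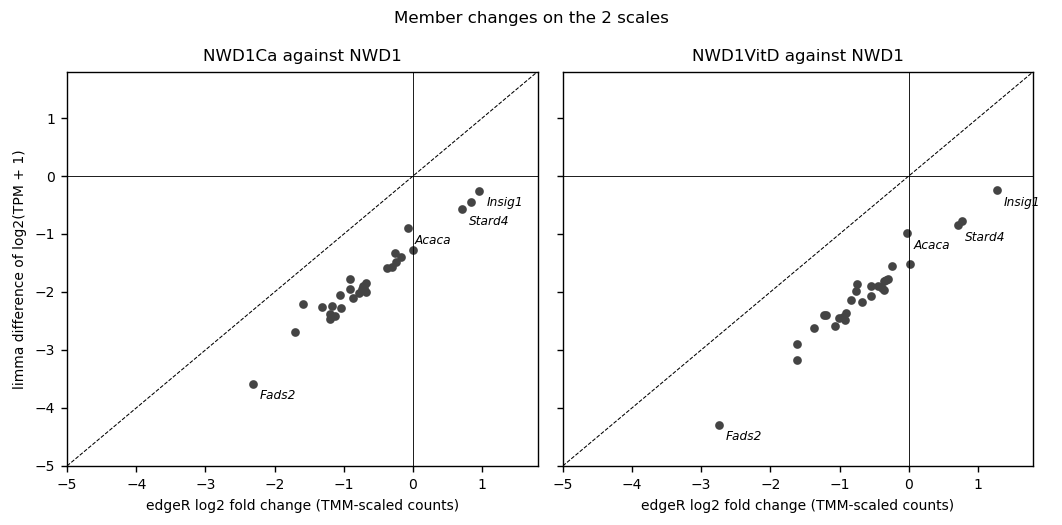
Each point is 1 of 29 members (Scd1 left out), with its edgeR log2 fold change on TMM-scaled counts on the x axis and its limma difference of log2(TPM + 1) on the y axis; the dashed line marks equal values. All points lie below the line. Among the members to the right of 0 on the x axis, Insig1 and Stard4, the only members called higher, are below 0 on the y axis. A turn of sign between scales was not limited to them. Elovl6, which was not called, had a higher mean CPM but a lower mean TPM in NWD1Ca and NWD1VitD than in NWD1.

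Ratios of 2 members within a library do not depend on library scaling, and 3 were computed after the values had been seen. The TPM ratio of Srebf2 to Srebf1 was 2.22 to 2.97 in AIN, 2.34 to 2.83 in NWD1 and 1.76 to 2.87 in NWD2. It was 1.27 to 1.44 in NWD1Ca, 1.28 to 1.74 in NWD1VitD, 0.584 to 1.78 in AINlowVitD and 1.1 to 1.78 in AIN_VdrKO. The groups of the second set did not overlap with AIN or NWD1. The ratio of Insig2 to Insig1 was 0.626 to 3.84 in AIN, 1.40 to 3.57 in NWD1 and 2.02 to 3.07 in NWD2, against 0.378 to 0.750 in NWD1Ca, 0.427 to 0.769 in NWD1VitD, 0.295 to 0.447 in AINlowVitD and 0.799 to 1.43 in AIN_VdrKO. The ratio of Fads2 to Fads1 was 3.05 to 5.36 in AIN, 3.98 to 4.96 in NWD1 and 3.49 to 5.64 in NWD2, against 1.72 to 2.00 in NWD1Ca, 1.61 to 2.53 in NWD1VitD, 1.42 to 2.05 in AINlowVitD and 0.759 to 2.38 in AIN_VdrKO. In 2-sided exact permutation tests of the log2 ratio, each of these 3 ratios reached p = 0.1 in NWD1Ca and NWD1VitD against NWD1 and in AINlowVitD against AIN, the smallest value that 3 against 3 libraries allow. The ratios of Srebf2 to Srebf1 and Fads2 to Fads1 also reached it in AIN_VdrKO against AIN. That of Insig2 to Insig1 did so in AIN_VdrKO against AINlowVitD. The Benjamini-Hochberg adjusted value over 33 tests was 0.275, so none could pass.

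Other genes of these pathways were taken from 3 lists. Of 8 further genes of sterol synthesis and SREBP cleavage, 3 fell in NWD1VitD against NWD1, 2 in NWD1Ca against NWD1 and 3 in AINlowVitD against AIN, and none rose in these comparisons. These are 37.5%, 25% and 37.5% of the 8, where 20.6%, 14.9% and 16.3% of all genes fell. Lbr, a sterol reductase of the inner nuclear membrane, was at -1.82 ± 0.34 SE in NWD1VitD (edgeR adjusted p = 5.14e-04), -1.28 ± 0.35 in NWD1Ca (0.0113) and -1.46 ± 0.34 in AINlowVitD (0.00361). Aacs, which activates acetoacetate, was at -1.48 in NWD1VitD and -1.60 in NWD1Ca (edgeR adjusted p = 0.00413 and 0.00471), and Mbtps1, the protease that makes the first cut in SREBPs, at -1.21 in AINlowVitD (0.0129).

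Of 11 other genes of lipid synthesis, 2 rose and 2 fell in NWD1VitD against NWD1, 1 rose and 1 fell in NWD1Ca against NWD1, 2 fell in AINlowVitD against AIN, and 1 rose and 2 fell in AIN_VdrKO against AIN. The shares that fell, 18.2%, 9.09%, 18.2% and 18.2%, stood beside 20.6%, 14.9%, 16.3% and 5.09% of all genes, and those that rose, 18.2%, 9.09%, 0% and 9.09%, beside 19.9%, 15.6%, 15.1% and 7.44%, so outside AIN_VdrKO the list was near or below the background. On TMM-scaled counts Me1, the malic enzyme that supplies NADPH, was higher by 2.55 ± 0.60 SE in NWD1VitD and 2.02 ± 0.63 in NWD1Ca (edgeR adjusted p = 0.00294 and 0.0219). Elovl5, an elongase of polyunsaturated fatty acids, was lower, at -1.01, -0.97 and -0.90 in NWD1VitD, NWD1Ca and AINlowVitD (edgeR adjusted p = 0.00128, 0.00420 and 0.00443). Mlxipl, which encodes the glucose-responsive factor ChREBP, was at -1.44 and Mid1ip1, an activator of acetyl-CoA carboxylase, at -1.15 in AIN_VdrKO against AIN (0.00425 and 0.00646).

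Of 13 genes of sterol export, uptake and esterification, 3 fell and 1 rose in NWD1VitD against NWD1, 3 fell in NWD1Ca against NWD1, 2 fell in AINlowVitD against AIN, and 1 fell in each of AIN_VdrKO and NWD1 against AIN. The shares that fell in the first 4, 23.1%, 23.1%, 15.4% and 7.69%, stood beside 20.6%, 14.9%, 16.3% and 5.09% of all genes, so in NWD1VitD and AINlowVitD the list was near the background. Soat1, which esterifies cholesterol, was at -1.58 ± 0.35 SE in NWD1VitD and -1.69 ± 0.38 in NWD1Ca (edgeR adjusted p = 0.00181 and 0.00302), and Nr1h2, which encodes LXR-beta, at -1.10 and -1.13 (0.00201 and 0.00498). In AINlowVitD Nr1h2 was at -1.03 and Scarb1, a lipoprotein receptor, at -1.09 (edgeR adjusted p = 0.00483 and 0.0289). Abcg5, an exporter of sterols, fell in NWD1 against AIN, at -2.12 ± 0.48 SE (edgeR adjusted p = 0.0455), and Nr1h3, which encodes LXR-alpha, in AIN_VdrKO, at -1.15 (0.0296).

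Beside these changes, 6 of 10 enterocyte markers rose and 6 of 10 Lgr5 stem cell markers fell on TMM-scaled counts in NWD1VitD against NWD1, 4 of 10 and 4 of 10 in NWD1Ca against NWD1, and 1 of 10 and 0 of 10 in AINlowVitD against AIN. Of all genes 19.9%, 15.6% and 15.1% rose and 20.6%, 14.9% and 16.3% fell in these 3 comparisons. In the same 3 comparisons 3, 2 and 2 of 6 goblet cell markers rose, among them Tff3 and Spink4 in each, 3, 2 and 2 of 6 enteroendocrine markers rose, among them Cck and Sct in each, and 2, 0 and 1 of 6 Paneth cell markers rose. In AINlowVitD against AIN the enterocyte share that rose (10%) and the stem cell share that fell (0%) were below those of all genes. The Paneth share that rose there (16.7%) was near that of all genes. Of 6 tuft cell markers 2 fell in NWD1Ca against NWD1, and Vim, 1 of 2 stroma markers tested, rose in NWD1VitD against NWD1. In AIN_VdrKO against AIN, 2 of 10 stem cell markers rose and 1 of 10 enterocyte markers fell, where 7.44% of all genes rose and 5.09% fell. All 6 Paneth cell markers had positive values there (median 1.88), with 1, Ang4, called higher, and Cd74, of the leukocyte list, and Acta2, of the stroma list, rose. In AIN_VdrKO against AINlowVitD 2 of 6 goblet cell markers, 1 of 6 enteroendocrine markers and 1 of 10 enterocyte markers fell and Cd74 rose. Of all genes 2.38% fell and 0.685% rose there. These directions are on TMM-scaled counts. The part of these cell markers in the members' changes was not tested.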

How the data were processed

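RNA of 21 libraries was analysed. The authors deposited a table of whole-number read counts, not normalised, and a companion table of TPM values. The submitters' processing notes name build mm9 and the tools HTSeq 0.6.1, STAR 2.4.2a and edgeR; the annotation release and settings were not given in the sources used here. Within each library the deposited TPM follow from the counts by 1 fixed length for each gene (6979 genes, largest SD of the centred log2 ratio 6.44e-10). No column was left unmapped to a sample. Per the labels' protocols, libraries were made with SMART-Seq v4 and Nextera XT, which do not mark strand, so overlapping antisense genes cannot be told apart from members. Reads carry no molecular identifiers, so counting error is a lower limit of the error. Replicates differed by far more than sampling noise (chi-square per degree of freedom of at least 51.7). Nothing in the labels says whether libraries came from single or pooled mice, and p-values measure the spread between these libraries.

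Counts were tested in R 4.3.3 with edgeR 4.0.16 (quasi-likelihood F test, two-sided, TMM scaling, filterByExpr). All libraries entered 1 fit with group means and sex as terms, with Benjamini-Hochberg adjustment over 16050 genes, threshold 0.05. CPM uses TMM-scaled sizes. Spike-ins were left out of library sizes and tested apart in libraries with at least 1000 spike-in counts. Alternatives were DESeq2 1.42.0, limma 3.58.1 on log2(TPM + 1) and log2(TPM + 0.1), no filter, no sex term, the 2 groups alone, a replicate block, left-out libraries and, added after the data were seen, offsets for GC content and length (known for 15346 of the tested genes). The test was also run on simulated counts, for NWD1 against AIN only. These counts held no difference between the sets, so they do not check the comparisons that cross the sets.

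The members and lists were chosen with earlier results of these data known. Full statistics were given to the up to 4 called members with the smallest p in a comparison, or to 2 where none was called, and levels by library to 8 fixed members. Other called members are given more briefly. Promoter letters are from RefSeq in build GRCm38.p6 and were matched by symbol, since the files use mm9.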

Additional observations from a re-analysis of the deposited data

How the results depend on the processing

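Called members stayed within 1.5 times the reported count in 138 of 165 recomputations. Comparisons with 0 reported calls were among these, and 0 against 0 counted as within. The share therefore does not measure how stable the reported calls were. Of 30 members, limma on log2(TPM + 1) called 23 in AINlowVitD against AIN, 26 in NWD1Ca against NWD1, 27 in NWD1VitD against NWD1 and 9 in AIN_VdrKO against AINlowVitD, and on log2(TPM + 0.1) 23, 26, 27 and 13, against 9, 12, 14 and 0 reported. Of all genes, limma called 50.5%, 56.6%, 64.7% and 32.1% on log2(TPM + 1) and 53.9%, 56.8%, 65.4% and 39.2% on log2(TPM + 0.1). On these scales Stard4 reversed to -0.57 and -0.58 in NWD1Ca and to -0.85 and -0.87 in NWD1VitD against NWD1, and Insig1 to -0.24 and -0.25 in NWD1VitD. AIN_VdrKO against AIN, with 3 reported, had 6 calls in DESeq2 (18.7% of all genes), 1 with only the 2 groups fitted (6.19%), and 8 without AIN 1, AIN 2 and NWD1 1 together (21.8%); NWD1Ca against NWD1 had 19 with only the 2 groups (38.9%). Keeping genes of low count gave 1 call in NWD1 against AIN (3.47% of all genes) and 1 in AIN_VdrKO against AINlowVitD (5.19%). Dropping sex gave 1 in AIN_VdrKO against AINlowVitD (8.19%). The causes of these shifts were not tested. With 1 library left out, counts ranged from 0 to 1 in NWD1 against AIN, NWD2 against AIN and AIN_VdrKO against AINlowVitD, 5 to 9 in AINlowVitD against AIN, 2 to 6 in AIN_VdrKO against AIN, 4 to 12 in NWD1Ca against NWD1 and 7 to 13 in NWD1VitD against NWD1. Scd2 in NWD1VitD against NWD1Ca (reported 0.82) ranged from -0.0057 without NWD1VitD 3 to 1.19 without NWD1VitD 1. With offsets for GC content and length, 1 of 3 calls in AIN_VdrKO against AIN, 7 of 9 in AINlowVitD against AIN, 9 of 12 in NWD1Ca and 11 of 14 in NWD1VitD remained, and with genes of low count kept 2, 6, 8 and 12.

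With a replicate block, 8, 3, 13 and 14 members were called in AINlowVitD against AIN, AIN_VdrKO against AIN, NWD1Ca against NWD1 and NWD1VitD against NWD1, and 0 in the other 7. Of all genes, 31.9%, 12.9%, 31.2% and 41.7% were called with the block in the first 4 of these. The labels do not tie same-numbered libraries to each other, and in 0 of the 11 comparisons was every same-number correlation above 0.1 (range -0.21 to 0.41).

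Genes called over the whole table moved as follows. DESeq2 called 802 in NWD1 against AIN (edgeR 123), 344 in NWD2 against NWD1 (1), 4 in NWD2 against AIN (0), 1166 in AIN_VdrKO against AINlowVitD (492), and 3, 5 and 8 in NWD1VitD against NWD1Ca, NWD1Ca against AINlowVitD and NWD1VitD against AINlowVitD (0 each). Without the filter the same 7 gave 969, 842, 157, 1448, 117, 90 and 68. On log2(TPM + 1), and then on log2(TPM + 0.1), 8101 and 8645 were called in AINlowVitD against AIN (5030), 9092 and 9111 in NWD1Ca against NWD1 (4903), 10377 and 10504 in NWD1VitD against NWD1 (6504), 5155 and 6293 in AIN_VdrKO against AINlowVitD and 27 and 28 in NWD2 against NWD1; the first gave 232 in NWD1 against AIN and the second 1336 in AIN_VdrKO against AIN (2011). Without sex there were 390 in NWD1 against AIN and 1315 in AIN_VdrKO against AINlowVitD, with only the 2 groups 2 in NWD2 against NWD1, 903 in AIN_VdrKO against AIN and 216 in AIN_VdrKO against AINlowVitD, and with the replicate block 782 in the last. With 1 library left out, the genes called ranged from 0 (without AIN 1) to 274 (without NWD1 3) in NWD1 against AIN, 0 to 840 (without AIN 3) in NWD2 against AIN, 0 to 343 (without NWD2 1) in NWD2 against NWD1, 130 (without AIN_VdrKO 3) to 1941 (without AIN_VdrKO 1) in AIN_VdrKO against AINlowVitD, 992 (without AIN 3) to 2654 in AIN_VdrKO against AIN, 3210 (without AIN 3) to 4945 in AINlowVitD against AIN and 2524 (without NWD1 3) to 5808 in NWD1Ca against NWD1. Depth limits Scd1, at 0 to 42 counts per library.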
